A study of Bos taurus with 25 samples.

Results

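Interferon signalling was followed through 9 bovine genes, STAT2, IRF1, IRF3, IRF7, IRF9, JAK1, TYK2, IFNAR1 and IFNAR2, in the hepatic tissue and the mammary gland of the same cows. The members were all probes, other than control spots, whose array name is an accession paired with 1 of these symbols. Of the 9 genes, 6 were found, with 12 of the 43653 probes and among 27841 gene names tested: IFNAR1 (NM_174552, 1 probe), IFNAR2 (NM_174553, 2 probes), TYK2 (NM_001113764, 2 probes), IRF9 (NM_001024506, 3 probes), IRF3 (NM_001029845, 2 probes) and IRF7 (NM_001105040, 2 probes). No probe was matched by name to STAT2, IRF1 or JAK1, and these 3 genes were not analysed here. The brightest probe of a gene in a tissue stands for it unless another is named.

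Type I interferons bind a receptor made of IFNAR1 and IFNAR2, which carry the kinases TYK2 and JAK1. These phosphorylate STAT proteins such as STAT2, which joins IRF9 in the complex ISGF3 to switch on interferon-stimulated genes such as ISG15, IFI6, IFI27 and MX1. IRF3 and IRF7 act upstream, where sensors of foreign nucleic acid activate them to drive the interferon genes themselves, and IRF7 and IRF9 are interferon-stimulated in turn. USP18 is a negative regulator that is induced by interferon and acts at IFNAR2. In the liver both hepatocytes and resident macrophages respond to interferon.

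The samples were biopsies of lactating Holstein cows taken 64 ± 3 days after calving, each hybridised to 1 single-colour oligonucleotide array, and the comparisons asked whether vitamin supplements changed transcript levels in either tissue. Control cows received a 5 mL intramuscular injection of saline every week, B9 cows 320 mg of folic acid, B12 cows 10 mg of cyanocobalamin, and B9 + B12 cows both vitamins. Control gave 3 hepatic and 3 mammary arrays, B9 3 and 3, B12 4 and 4, and B9 + B12 2 and 3, from 13 cows of which 12 gave both tissues. All groups shared the breed, the stage of lactation and the weekly injection, and every treatment was set against the same control arrays.

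All 6 genes were well above background on every hepatic array, and all but IFNAR1 on every mammary array, where IFNAR1 passed on 10 of 13. Between 71.2% and 84.2% of probes were well above background on the hepatic arrays, and between 64.5% and 76.5% on the mammary arrays. Hepatocyte markers (9 of 10 listed genes with a probe) averaged 17.62 to 17.85 on the log2 scale in the liver and 6.64 to 9.13 in the gland. Mammary epithelial markers (9 of 10) averaged 15.97 to 16.49 in the gland and 8.34 to 11.07 in the liver. Hepatic arrays of cows 57 (B9) and 32 (B9 + B12) stood apart, with median correlations of 0.971 and 0.971 with the other hepatic arrays. The array of cow 32 was also 1 of 3 hepatic arrays, with those of control cow 43 and B12 cow 37, on a slide scanned on a later day.

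No change of the 6 genes with a vitamin treatment was called in the liver, where the groups held 2 to 4 cows. A gene was called when limma gave an adjusted p of at most 0.05 and the change was at least 2-fold. Called members numbered 0 of 6 for B9, where 0% of all 27841 genes were called, 0 of 6 for B12, where the share was 0.00359%, and 0 of 6 for B9 + B12, where it was 0%. No member probe had an unadjusted limma p under 0.05 in these 3 contrasts, and Cyber-T, a regularised alternative test, also called 0. The median log2 fold change of the members was 0.14, 0.09 and 0.02 in the same order, beside 0.008, −0.0002 and 0.03 over all genes.

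By the brightest probes, the gene that varied most from cow to cow in the liver was IRF7, the factor that amplifies interferon production, with an SD of 0.69 over the 12 arrays against a median of 0.247 over all genes. In log2 intensity, the controls lay at 10.60, 10.91 and 11.32, and the B9 cows at 10.96, 10.96 and 12.04. The B12 cows lay at 10.91, 11.37, 12.46 and 12.53, and the B9 + B12 cows at 10.43 and 11.54. Both cows above 12.4 belonged to the B12 group, but its lowest cow lay at the level of the controls, so that the groups overlapped. The mean was 11.82 ± 0.80 (SD, n = 4) with B12 and 10.94 ± 0.37 (SD, n = 3) in control, a log2 fold change of 0.87 ± 0.45 (SE, 1.83-fold). The 95% interval ran from −0.12 to 1.86 (limma adjusted p = 1), and a two-sided exact permutation test over the 7 arrays gave p = 0.171, where 0.0286 is the smallest it allows. The change moved from 0.56 with slide as a fixed block to 1.17 without B12 cow 40, and no alternative called it.

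IRF9, the DNA-binding subunit of ISGF3, was also highest in cows 36 and 37, the B12 cows with the highest IRF7, and no group difference was called. The controls lay at 11.82, 11.89 and 12.12 in log2 intensity, and the B9 cows at 11.64, 11.75 and 12.29. The B12 cows lay at 11.22, 12.19, 12.46 and 12.51, so that this group held both the lowest and the highest hepatic array, and the B9 + B12 cows lay at 11.46 and 11.91. The log2 fold change was 0.15 ± 0.29 (SE) with B12, −0.05 ± 0.31 with B9 and −0.26 ± 0.35 with B9 + B12. The smallest exact permutation p among these differences was 0.5, for B9 + B12 with 2 arrays against 3. Without B12 cow 40 the B12 change was 0.44, and with slide as a fixed block it was −0.07.

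**Figure D1:**
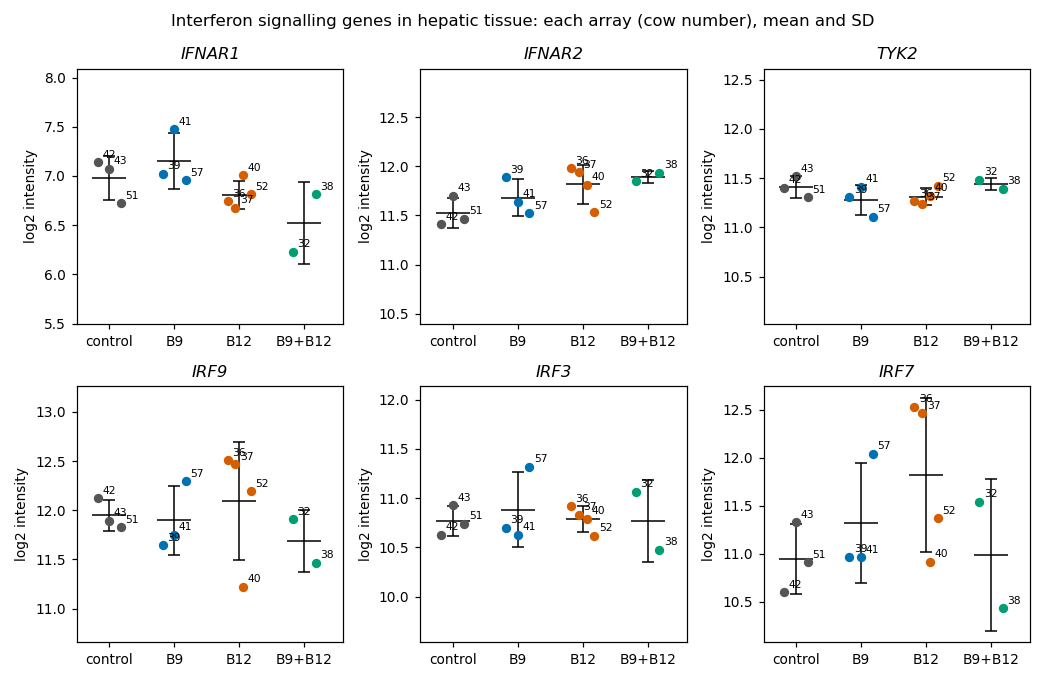
Log2 intensity (vertical axis) of the brightest probe of each gene on every hepatic array, by treatment, with the cow number beside each point and the group mean and SD as bars. Cows 36 and 37 of the B12 group lie above all other cows for IRF7, at 12.53 and 12.46, and for IRF9, at 12.51 and 12.46, while B12 cow 40 lies among the lowest.

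The receptor chains varied less. IFNAR2, the chain that binds interferon with high affinity, lay between 11.41 and 11.98 in log2 intensity over all 12 hepatic arrays. Its mean was 11.52 ± 0.15 (SD, n = 3) in control, 11.68 ± 0.19 (n = 3) in B9, 11.81 ± 0.20 (n = 4) with B12 and 11.89 ± 0.06 (n = 2) with B9 + B12. Both B9 + B12 cows, at 11.84 and 11.93, lay above all 3 controls, but the log2 fold change of 0.36 ± 0.17 (SE) was not called (limma adjusted p = 0.664). In the same 2 livers the means of several marker lists also lay above all 3 controls. They were 9.25 and 9.54 against at most 9.06 for T and NK cells, and 8.001 and 8.284 against 7.909 for dendritic cells. Endothelial markers lay at 10.35 and 10.63 against 10.27, and plasma and B cell markers at 7.96 and 8.57 against 7.95. Mammary epithelial markers lay at 9.24 and 9.33 against 8.81, and adipocyte markers at 6.947 and 7.111 against 6.928. The macrophage mean lay below all 3 controls, at 10.951 and 10.96 against at least 10.972, and hepatocyte markers overlapped them. The part of these lists in the B9 + B12 values was not tested. IFNAR1, the chain that carries TYK2, lay between 6.23 and 7.48, much dimmer spots. Its mean was 6.98 ± 0.23 in control, 7.15 ± 0.28 in B9, 6.81 ± 0.14 in B12 and 6.52 ± 0.41 in the B9 + B12 group, and each treated group overlapped the controls.

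The 2 probes of the kinase TYK2 differed in spread in the liver. The brightest lay between 11.11 and 11.52, with an SD of 0.12 over the 12 arrays, and the second between 9.496 and 11.73, with an SD of 0.73. By the brightest probe the log2 fold changes were −0.13 ± 0.12 (SE) in B9, −0.10 ± 0.11 in B12 and 0.03 ± 0.13 in the B9 + B12 group. Its 95% intervals stayed between −0.39 and 0.32, short of a 2-fold change, whereas those of the second probe ran from −1.43 to 1.90 and passed 2-fold in both directions. IRF3, which is present before infection and is activated by phosphorylation, lay between 10.48 and 11.32. Its log2 fold changes were 0.12 ± 0.21, 0.03 ± 0.19 and 0.007 ± 0.23 in the same order, with intervals between −0.50 and 0.57.

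Pooling the cows by vitamin gave the same picture. With any B12 against no B12, the called members were 0 of 6 in the liver, where 0% of all genes were called, and 0 of 6 with any B9, where the share was 0%. IFNAR1 and IFNAR2 had unadjusted limma p-values of 0.0175 and 0.0465 with any B12, at log2 differences of −0.40 ± 0.14 (SE) and 0.25 ± 0.11, and adjusted p-values of 1. The interaction of B9 with B12, tested without a fold limit, called 0 of 6 members and 0% of all genes. A second IRF9 probe gave −0.90 ± 0.37 (SE; limma adjusted p = 1). The largest interaction of a member was that of IRF7, at −1.21 ± 0.70 (SE; limma adjusted p = 1). It was −2.14 with slide as a fixed block and −0.65 without B9 + B12 cow 38, and with 2 hepatic arrays in the B9 + B12 group each cow had a large weight.

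In the mammary gland the called members were also 0 of 6 under each vitamin treatment, and 0% of all genes were called in each of the 3 contrasts. Any B12, any B9 and the interaction called 0 of 6 members and 0% of all genes as well. Log2 fold changes of the 6 genes ran from −0.39 to 0.10 after folic acid, from −0.18 to 0.25 after cyanocobalamin and from −0.29 to 0.33 after both. IRF7 lay at 10.06, 10.07 and 10.48 in the control glands and at 9.91, 10.30 and 10.69 with B9. It lay at 9.99, 10.47, 10.54 and 10.80 with B12, and at 10.15, 10.52 and 10.91 with B9 + B12, and all groups overlapped.

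By the brightest probes, IRF9 was the member that varied most in the gland, with an SD of 0.34 against a median of 0.172 over all genes. The controls lay at 9.33, 9.38 and 9.73 in log2 intensity, and the B9 cows at 8.75, 9.11 and 9.41. The B12 cows lay at 9.10, 9.45, 9.61 and 10.09, and the B9 + B12 cows at 9.01, 9.23 and 9.32. All 3 B9 + B12 glands lay below all 3 controls, at a log2 fold change of −0.29 ± 0.23 (SE; exact permutation p = 0.1, the smallest that 3 against 3 allows; limma adjusted p = 1). Over any B9 against none the difference was −0.38 ± 0.16 (limma adjusted p = 1).

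IFNAR1 stayed between 5.00 and 5.49 in the gland, and all 3 B9 + B12 glands again lay below the controls, at −0.23 ± 0.10 (SE; exact permutation p = 0.1, limma adjusted p = 1). With any B12 it differed by −0.21 ± 0.07 (limma adjusted p = 1). The 3 glands in which IFNAR1 was not well above background, those of cows 36, 40 and 38, were all from cows given B12. The size of the difference depended on the background correction, from −0.11 with an offset of 50 to −0.57 with the processed signal. IFNAR2 lay between 7.90 and 8.63, and TYK2 between 8.22, the value of B9 cow 39, and 9.29. IRF3 lay between 9.70 and 10.29, and no treated group of these 3 genes was separate from the controls.

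**Figure D2:**
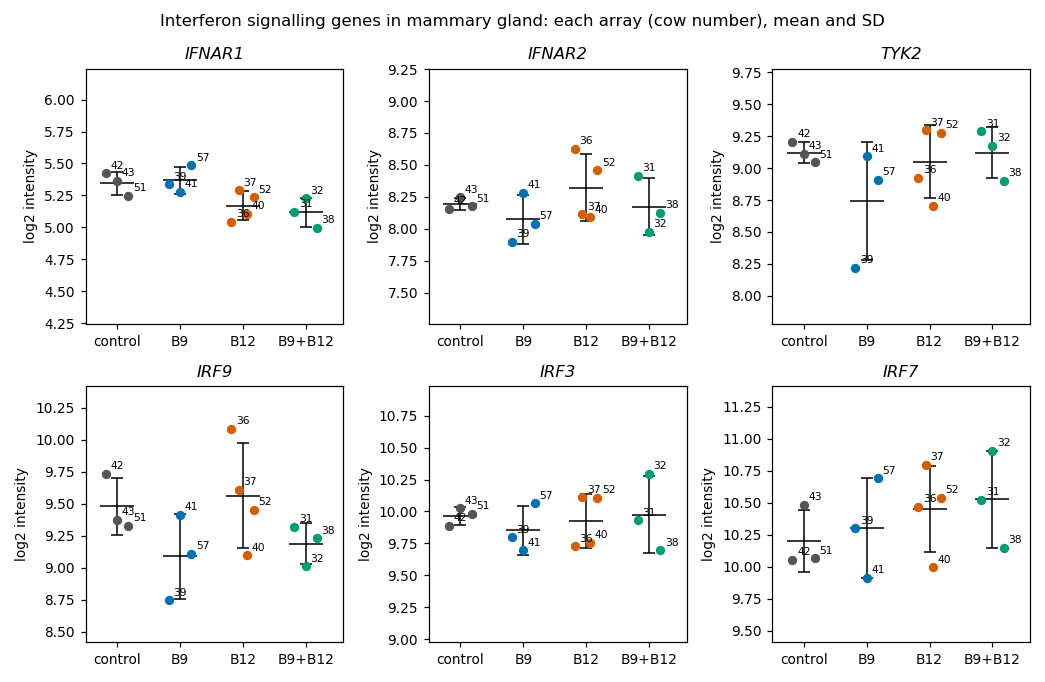
Log2 intensity (vertical axis) of the same 6 genes on every mammary array, by treatment, with the cow number beside each point and the group mean and SD as bars. The treated groups overlap the control points except for IFNAR1 and IRF9 with B9 + B12, whose 3 cows lie below the 3 controls, by 0.23 and 0.29 on average.

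**Figure D3:**
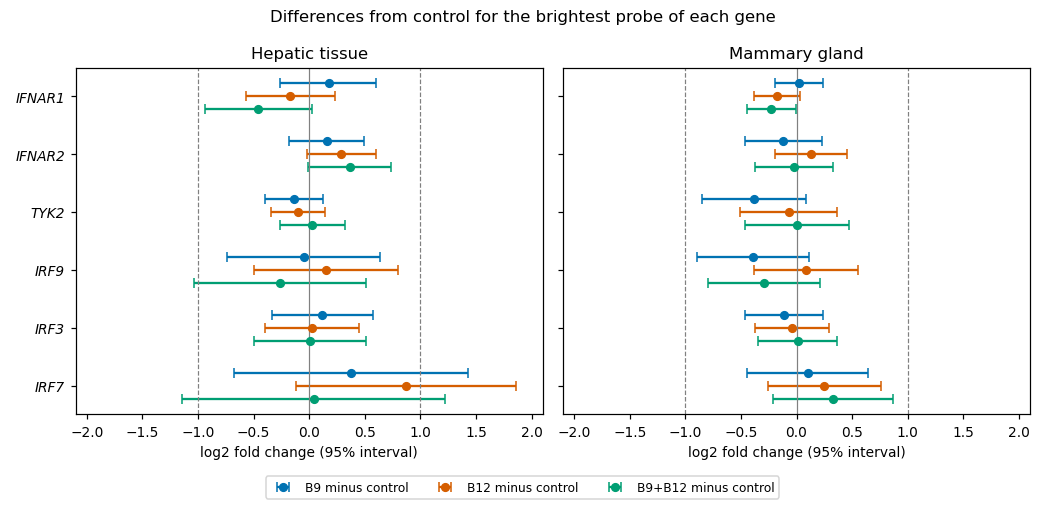
Log2 fold change against control (horizontal axis, 95% interval from limma) for the brightest probe of each gene and each treatment in both tissues, with dashed lines at a 2-fold change. No estimate reaches a dashed line, and the widest intervals are those of hepatic IRF7, from −1.14 to 1.22 with B9 + B12.

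The vitamin effects on these genes were not shown to differ between the tissues. A contrast of the hepatic with the mammary effect, tested without a fold limit, called 0 of 6 members for B9, with 0% of all genes called, 0 of 6 for B12, with 0.00359%, and 0 of 6 for B9 + B12, with 0%. The largest difference of effects was that of IRF7 with B12, at 0.62 ± 0.53 (SE), with a 95% interval from −0.47 to 1.72 (limma adjusted p = 1).

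The wider pathway in the liver with B12 held 1 called gene outside the members. Of 33 interferon-stimulated targets with a probe (47 listed), 1 was called and rose, IFI6, a mitochondrial protein that restrains cell death, which was the 1 gene behind the share of 0.00359% over all genes. IFI6 lay at 12.97, 13.07 and 13.36 in log2 intensity in the control livers and at 16.26, 16.81, 16.92 and 17.50 with B12, which did not overlap. Its log2 fold change was 3.74 ± 0.30 (SE; 13.4-fold, limma adjusted p = 0.00447). A further 7 targets were higher at an unadjusted limma p under 0.05 and were not called, where 288 of all 27841 genes were higher and 231 lower at that limit. Among the 7 were IFI27 at 2.95 ± 0.49, ISG15 at 2.49 ± 0.81 and HERC6 at 1.81 ± 0.39. The IFI6 call was lost without control cow 43 or control cow 51, with slide as a fixed block, with the processed signal and with the first scan day alone.

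Upstream of the targets nothing passed. The called genes with B12 were 0 of 7 interferon ligands (18 listed), 0 of 7 other receptors, kinases and STATs (11), 0 of 3 other IRFs (7), 0 of 10 inhibitors (13) and 0 of 15 sensors (22). USP18 lay at 8.81, 8.85 and 9.26 in the control livers and at 8.68, 9.93, 10.32 and 11.06 with B12, a log2 fold change of 1.03 ± 0.46 (limma adjusted p = 1). The inhibitor SOCS2 went the other way, at −1.30 ± 0.52 (limma adjusted p = 1), and the median over the 10 inhibitors was −0.04. The ligand probes lay between 4.12 and 7.28 in the liver, where 2 to 4 of the 7 were well above background on an array.

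IRF7 followed the target ISG15, a ubiquitin-like protein, from cow to cow in the liver. ISG15 lay at 11.59, 12.03 and 12.55 in log2 intensity in the controls, at 11.51, 11.97 and 14.56 with B9, at 12.92, 13.90, 15.40 and 15.96 with B12, and at 11.24 and 12.26 with B9 + B12. Over the 12 arrays Pearson's r between IRF7 and ISG15 was 0.91 (permutation p = 0.00017, adjusted p = 0.00204 over 12 relations) and Spearman's rho was 0.79 (permutation p = 0.00352, adjusted p = 0.0422). Within groups, on deviations from the group means, r was 0.91, with an exact permutation p of 0.00521 and an adjusted p of 0.0625. Without the 2 arrays farthest from the ISG15 median, cows 36 and 37, r was 0.77 and the adjusted permutation test over the 12 relations no longer passed. On the 9 arrays of the first scan day r was 0.95, and without cows 57 and 32 it was 0.93.

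IRF9 followed ISG15 less closely in the liver, with r = 0.74 (permutation p = 0.00689, adjusted p = 0.0413) and rho = 0.70 (permutation p = 0.0142, adjusted p = 0.0567). It rested on the extremes, since r was 0.48 without the same 2 cows, and within groups r was 0.81 (exact permutation p = 0.0133, adjusted p = 0.0712). The other 4 genes gave r between −0.64 for TYK2 and 0.48 for IRF3, with adjusted permutation p-values of 0.0743 or more. In the gland ISG15 lay between 7.78 and 10.46, and none of the 6 relations passed. There r was 0.66 for IRF9 (permutation p = 0.0139, adjusted p = 0.0558) and 0.25 for IRF7 (permutation p = 0.416, adjusted p = 0.536). Whether the IRF7 relation differed between the tissues was not tested.

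**Figure D4:**
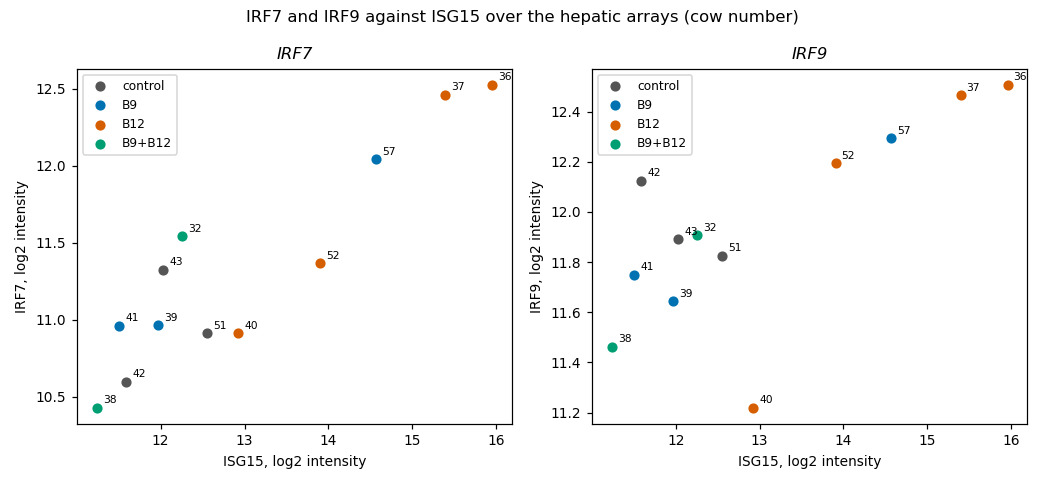
Log2 intensity of IRF7 (left, vertical axis) and IRF9 (right) against ISG15 (horizontal axis) over the 12 hepatic arrays, coloured by treatment and marked with the cow number. IRF7 rises along ISG15 (r = 0.91) with cows 36 and 37 at the upper end, while B12 cow 40 lies below the other points for IRF9 (r = 0.74).

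Other transcripts moved with IRF7 over the same cows. The 3 names most like it over the 12 hepatic arrays, out of 27840 compared, were the transcript ENSBTAT00000045242 (r = 0.936), IFI35, an interferon-induced protein (r = 0.933), and XM_589621 (r = 0.932). For IRF9 in the 13 glands they were XM_592110 (r = 0.917), XR_083859 (r = 0.902) and ENSBTAT00000013317 (r = 0.896). The mean of the 33 targets was likewise highest in the livers of cows 36 and 37, at 11.51 and 11.46, and between 9.86 and 10.83 in the other 10.

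Mammary epithelial markers were also highest in the livers in which IRF7 was high. The mean of the 9 markers was 11.07 in cow 36, 10.68 in cow 37 and 10.20 in cow 57, and from 8.34 to 9.61 in the other 9 livers. By group it ran from 8.66 to 8.81 in control, 9.03 to 10.20 with B9, 8.34 to 11.07 with B12 and 9.24 to 9.33 with B9 + B12, with all 9 markers well above background on every hepatic array. Of the 9 markers, 7 were called lower in the liver than in the gland, whereas the keratins KRT8 and KRT18 were called higher, so that the list is not specific to the gland. KRT8 lay at 14.17 to 15.32 and KRT18 at 14.54 to 16.14 in log2 intensity on the hepatic arrays, and both enter the sums. The summed linear intensity of the 9 was 47236 to 69308 in control, 63697 to 79580 with B9, 48160 to 125860 with B12 and 46975 to 71802 with B9 + B12. Of the milk protein genes, PAEP lay at 12.52, 12.10 and 11.25 in the livers of cows 36, 37 and 57 and at 8.79 to 8.95 in control. The casein CSN1S1 lay at 11.71, 11.33 and 10.06 in log2 intensity in the livers of cows 36, 37 and 57, and at 6.64 in that of B12 cow 52, where ISG15 was 13.90 and IFI6 16.81. The part of these transcripts in the IRF7 and IRF9 values was not tested. Macrophage markers averaged 10.96 and 10.98 in cows 36 and 37, beside a control range of 10.97 to 11.06, and T and NK cell markers 8.82 and 9.03, inside the control range of 8.57 to 9.06. Endothelial markers (5 of 6 listed) were lower in all 4 B12 livers, at 9.83 to 10.05, than in the controls, at 10.07 to 10.27. Dendritic cell markers (6 of 8) were higher in all 4, at 7.917 to 7.999, than in the controls, at 7.70 to 7.91. Their part in the values of the B12 group was not tested. Plasma and B cell markers and adipocyte markers overlapped between B12 and control, at 7.12 to 7.96 against 7.27 to 7.95 and at 6.26 to 6.75 against 6.66 to 6.93. In biopsies fewer cells of a type and less RNA per cell cannot be told apart.

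The tissue comparison called some of the members. On values normalised together over all 25 arrays, 2 of 6 members, IFNAR2 and IRF9, were called higher in the liver, where 8.7% of all genes were called, and 0 of 6 higher in the mammary gland, where the share was 11.5%. IFNAR2 lay between 10.65 and 11.18 in log2 intensity in the liver, with a median of 10.97, and between 8.65 and 9.36 in the gland, with a median of 8.89, and the tissues did not overlap. Its difference was 2.02 ± 0.07 (SE; 4.06-fold, limma adjusted p = 2.9e-15), and the second probe gave 1.54 ± 0.06.

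IRF9 lay between 10.48 and 11.66 in the liver (median 11.11) and between 9.48 and 10.87 in the gland (median 10.07), and the tissues overlapped. The difference was 1.04 ± 0.14 (SE; 2.05-fold, limma adjusted p = 1.84e-06), and the other 2 probes gave 1.13 ± 0.10 and 0.79 ± 0.08. It sat at the 2-fold limit and fell to 0.91 with slide as a fixed block, to 0.96 without cow 32 and to 0.99 without cow 57, which left the brightest probe short of 2-fold, while the probe at 1.13 kept the gene called when any cow was left out.

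The remaining members differed by less than 2-fold on the joint values. TYK2 was 0.86 ± 0.09 (SE) higher in the liver by its brightest probe (limma adjusted p = 3.56e-08) and 0.15 ± 0.23 by its second (adjusted p = 0.612), and the brightest gave 2.35 in the authors' table, 1.08 with scaling by the 75th percentile and 1.05 with the processed signal. IFNAR1 differed by 0.61 ± 0.05 (limma adjusted p = 9.08e-10), but by −0.10 with scaling by the 75th percentile, 1.62 in the authors' table and 1.52 with the processed signal. IRF3 and IRF7 were lower in the liver, by −0.60 ± 0.09 (adjusted p = 6.94e-06) and −0.63 ± 0.19 (adjusted p = 0.00744), whereas the authors' table, normalised within each tissue, gave 0.87 and 0.90. That table moved the median of all probes to 0.56, and scaling by the 75th percentile moved it to −0.80, from −0.03.

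**Figure D5:**
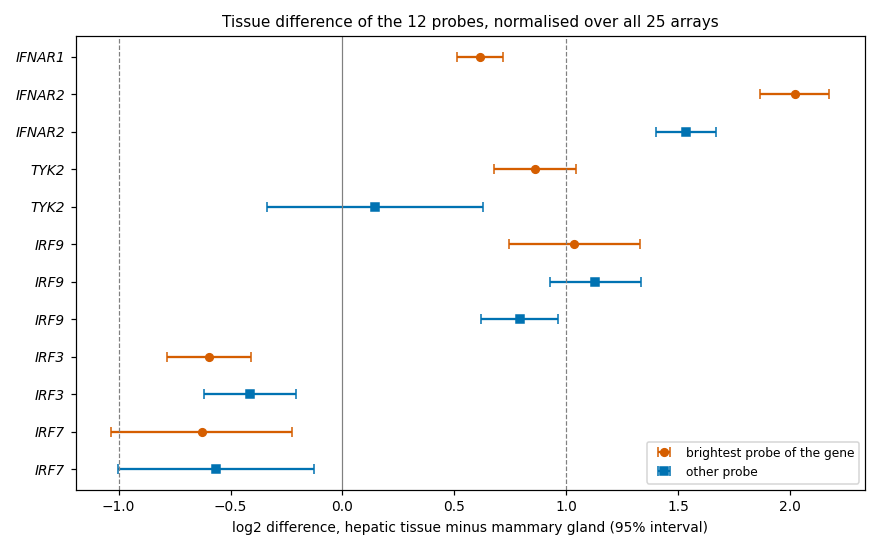
Log2 difference between hepatic tissue and mammary gland (horizontal axis, 95% interval from limma) for the 12 probes, with dashed lines at a 2-fold difference and the brightest probe of each gene in a separate colour. Both IFNAR2 probes lie beyond the 2-fold line at 2.02 and 1.54, the 3 IRF9 probes lie around it from 0.79 to 1.13, and the IRF3 and IRF7 probes lie below 0.

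Among the other pathway genes, USP18 was called higher in the liver, at 2.22 ± 0.16 (SE), as were IRF5 (2.83-fold) and IRF8 at 1.03 ± 0.10, the last 2 being factors of myeloid and lymphoid cells. The counts of these lists were taken by the brightest probe. They stand beside shares, by any probe, of 8.7% of all genes called higher in the liver and 11.5% in the gland. Of 7 other receptors, kinases and STATs, 2 were called higher in the liver and 2 in the gland. Of 3 other IRFs the counts were 2 and 0, and of 7 ligands 0 and 0. Of 10 inhibitors 1 was called higher in the liver and 3 in the gland, and of 15 sensors 1 and 4, including the kinase IKBKE at −2.47 ± 0.15 and the adaptor MYD88 at −1.77 ± 0.07. Of 33 targets 11 were called higher in the liver, such as ISG15 at 2.62 ± 0.35, and 2 in the gland, HERC6 at −3.48 ± 0.19 and NMI at −1.62 ± 0.12. The median difference was 0.69 over the targets, 0.74 over the 6 members and −0.03 over all genes. Of 8 macrophage markers 5 were called higher in the liver on the same joint values, and 0 in the gland. Their median difference was 1.34, with a range from −0.92 for LYZ to 2.11 for CD68. Of 10 T and NK cell markers 0 were called higher in the liver and 3 in the gland. For dendritic cells these counts were 2 and 1 of 6 markers, and for plasma and B cells 1 and 2 of 6. The part of these cell types in the tissue differences was not tested.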

How the data were processed

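RNA from 12 hepatic and 13 mammary biopsies was hybridised to single-colour Agilent bovine arrays of 45220 spots. Per the file headers, the spot intensities were extracted with Agilent Feature Extraction 10.7.3.1. The log2 values deposited by the authors were background-corrected and normalised between arrays within each tissue. They matched normexp with an offset of 16 followed by quantile normalisation, with a median absolute difference of 0.00178 in the liver and 0.000912 in the gland, and column medians of 6.97 to 6.98 and 6.13 to 6.14. Treatments were compared on these values. The tissues were compared on median spot intensities corrected by normexp (offset 50) and quantile-normalised over all 25 arrays.

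Control spots were left out and spots of 1 probe averaged. Names were paired with symbols by RefSeq accession for 53.9% of probes. Linear models were fitted over all groups of a tissue in limma 3.58.1 (R 4.3.3), with Benjamini-Hochberg adjustment over all 43653 probes. Every member was described by its brightest probe, and members and the shares over all genes were counted as called by any probe. Pathway and marker lists were counted by the brightest probe of each gene. Other pathway genes were named where called, or as the lists' leading examples. Correlations with ISG15 used 100000 permutations. The script was tested on simulated data. Replicates were separate cows, and the number of arrays limits the precision. Cow numbers paired the tissues because they name the same animal, although deviations from the group means correlated at a median of 0.0371 (over 0.1 in 2 of 12 cows). Alternatives covered background correction, scaling, dim probes, slide, scan day, Cyber-T (window 101, confidence 10) and leaving out each cow. The scan-day settings, the offset of 16 and the omission of cows 57 and 32 were chosen after seeing the data. The members and gene lists were chosen with earlier results of these data known.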

Additional observations from a re-analysis of the deposited data

Results flagged for a closer look

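The effect of B12 on IFI6, an interferon-stimulated gene downstream of the members, differed between the tissues. The log2 fold change was 3.74 in the liver, and the hepatic effect exceeded the mammary effect by 3.06 ± 0.44 (SE; limma adjusted p = 0.034). IFI6 was higher in 4 of 4 B12 livers than in every control liver, and in 4 of 4 B12 glands, at 10.25 to 11.41, than in every control gland, at 9.97 to 10.19 in log2 intensity. It was the 1 gene of 27841 called in this contrast, and 0 genes were called with an offset of 50, with either 75th percentile scaling, or without any 1 control or B12 array other than those of cow 37. None of the 6 members was called in it.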

How the results depend on the processing

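Members called with a vitamin treatment stayed at 0 under every alternative run, Cyber-T included. Of 1974 single values of members in those contrasts, none was called. For the tissue difference, 2 members were called on the joint values. The authors' table called 4, the software's processed signal on a 75th percentile scale called 4, and averaging a gene's probes left 1. Scaling the scanner values by the 75th percentile called TYK2, at 1.08, besides IFNAR2 and IRF9. The authors' table is normalised within each tissue. Leaving out each cow in turn gave 2 to 2. The replicate block, with cow as a fixed or a random block, also gave 2, at a correlation between tissues of the same cow of −0.0222, and changed no other call. Of 12 relations with ISG15, 2 passed on all arrays and 0 without the 2 arrays farthest from the median, where fewer samples entered. Over all genes, B12 in the liver called 1 gene in limma and 31 with Cyber-T. The B9 + B12 effect difference called 0, and 1885 without hepatic B9 + B12 cow 38, which left 1 array in that group, assumed to vary like the others. Mammary IFNAR1 was well above background on 10 of 13 arrays, which limits its values. The causes were not tested.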

Other observations

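Across the 12 cows, IRF7 and some IRF9 probes in the liver correlated with the gland of the same cow, but no relation passed within treatment groups. The relation was examined after the values were seen, over 12 cows and 12 probes, with permutation p-values adjusted over the 12. For IRF7, r was 0.74 (permutation p = 0.00712, adjusted p = 0.0357) and rho 0.74 (permutation p = 0.00832, adjusted p = 0.0464). The second IRF7 probe gave r = 0.63 (permutation p = 0.0289, adjusted p = 0.0578), which did not pass, and rho = 0.71 (permutation p = 0.0126, adjusted p = 0.0464). For the first probe, without the 2 cows farthest from the median, r was 0.79, and on the first scan day it was 0.74. The 3 IRF9 probes gave r of 0.64, 0.72 and 0.79, of which the last 2 passed, and 0.49, 0.57 and 0.83 without the 2 cows farthest from the median. Within groups, on deviations from the group means, r was 0.83 for IRF7 (exact permutation p = 0.0122, adjusted p = 0.0732) and 0.62, 0.75 and 0.81 for the IRF9 probes (smallest adjusted exact permutation p = 0.0732), and 0 of 12 relations passed. No cow had both of its arrays on 1 slide. The relation was not called for IFNAR1 (r = 0.30), IFNAR2 (r = −0.04 and −0.10) or IRF3 (r = 0.52 and 0.43). For TYK2 it was not called either, at r = 0.29 for the brightest probe and −0.64 for the second (permutation p = 0.0276, adjusted p = 0.0578), opposite in direction to IRF7 and IRF9.

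The 2 probes of TYK2 did not move together, with r = 0.20 in the liver and −0.63 in the gland. In the same order, the probes of IRF7 correlated at 0.99 and 0.96, those of IFNAR2 at 0.79 and 0.87, and those of IRF3 at 0.94 and 0.52. The pairs of IRF9 probes ranged from 0.84 to 0.92 in the liver and from 0.72 to 0.89 in the gland.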
